A study of Mus musculus with 40 samples.

Results

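Kupffer cells are the resident macrophages of the liver, and injured livers also hold macrophages that come from blood monocytes. The expression of 10 genes that mark these cells was followed in livers of mice that lack Nampt in hepatocytes (HNKO) and of WT controls. The genes were chosen by name, and each was found in the count table by its identifier. They are 10 of the 55487 genes listed, and 10 of 10 passed the filter on low counts that left 20297 genes for testing. Clec4f, Timd4, Vsig4, Marco, and Adgre1 mark resident Kupffer cells, and Cd68, Lyz2, Trem2, Gpnmb, and Cd9 were taken as genes of recruited or scar-associated macrophages. Female mice on the C57BL/6JBomTac background, 9 weeks old at the start, received a purified control diet (PD), and livers were taken after 3, 6, 12, or 21 days of it. The RNA of whole liver was sequenced with 1 library per mouse. In the labels the days stand as an age, and the study's methods describe them as days of feeding. HNKO mice were Nampt fl/fl and carried Alb-Cre, a Cre recombinase under the albumin promoter that acts in hepatocytes, and the WT littermates were floxed as well. The deletion was thus directed at hepatocytes and not at the macrophages that these genes mark. The groups used here were 5 WT and 5 HNKO livers at day 3, 4 and 5 at day 6, 5 and 6 at day 12, and 5 and 3 at day 21.

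The 38 libraries held between 16151037 and 64181492 counts (median 26466478.5), and 2 further HNKO libraries of day 21, numbers 17 and 18, are described as failed in quality control and were left out. Nampt itself had log2 fold changes (HNKO against WT) of -0.93, -0.90, -0.82, and -0.69 at the 4 days in order (adjusted p = 0.0193, 0.0128, 0.0208, and 0.161, edgeR), and the last missed the threshold of 0.05. Levels are given in CPM (counts scaled to the size of the library). At day 6 the genotypes overlapped in Nampt, with the highest HNKO liver at 6.36 and the lowest WT liver at 5.99 log2 CPM. At the other days every HNKO liver was below every WT liver. Summed over 5 hepatocyte genes, the level ranged from 53739 to 138791 CPM over the groups, and no listed Kupffer cell gene was at 0 counts in any group. Libraries are numbered in 2 series that each cover the 4 days, 1 to 21 and 22 to 41, and the 3 HNKO libraries of day 21 are all of the second. In each of 74 pairs of libraries from 1 group the counts differed beyond sampling noise (mean chi-square per gene at least 12.5).

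Resident Kupffer cells line the sinusoids, where they take up bacteria, old red cells, and cell debris from portal blood, and they renew themselves in the healthy liver. When Kupffer cells are lost or hepatocytes die, monocytes enter from the blood and become macrophages that gather around dead or lipid-laden cells and along scars. Such cells express receptors and lysosomal proteins for the handling of lipid and debris, among them Trem2, Gpnmb, and Cd9, whereas the lectin Clec4f and the phosphatidylserine receptor Timd4 mark the resident cells. None of these genes is a perfect label. Lyz2 and Cd68 are expressed by monocytes and macrophages of every origin, Kupffer cells included, and Cd9 is also found on epithelial, endothelial, and other cells of the liver. In RNA of whole tissue, a change in the number of such cells and a change in RNA per cell cannot be told apart.

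All positions are those of GRCm38, taken from GENCODE release M21. Clec4f (ENSMUSG00000014542.3) lies at chr6:83644542-83656187, Timd4 at chr11:46810800-46844332, Vsig4 at chrX:96247203-96293438, Marco at chr1:120474538-120505024, and Adgre1 at chr17:57358691-57483527. Cd68 lies at chr11:69664213-69666153, Lyz2 at chr10:117277331-117282321, Trem2 (ENSMUSG00000023992.14) at chr17:48346401-48354147, Gpnmb (ENSMUSG00000029816.10) at chr6:49036546-49070929, and Cd9 at chr6:125460266-125494791. All are protein-coding genes, and counts were summed over their exons. Cut into every stretch of 51 bases, the length of a read, Lyz2 transcripts share 14.8% with the neighbor paralog Lyz1, whose counts were 0 to 64 (median 3) against 943 to 11738 for Lyz2. Cd9 transcripts share 5.47% with other genes, and Cd9 overlaps Gm26728 on the opposite strand by 218 bp. For the other 8 genes no such stretch was shared.

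Promoter sequences of 9 of the 10 genes were found in RefSeq (GRCm38.p6). The 120 bases before the transcription start are shown for Trem2 and Gpnmb, which had the largest mean differences between genotypes over the 4 days and moved together among HNKO livers, and for Vsig4, a resident gene, for comparison. Each is given 5′ to 3′ on the strand of its gene, with the letters of a motif in capitals.
Trem2, chr17:48346281-48346400, plus strand: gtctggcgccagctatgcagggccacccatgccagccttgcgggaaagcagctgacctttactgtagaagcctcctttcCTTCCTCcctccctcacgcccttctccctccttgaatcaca
Gpnmb, chr6:49036398-49036517, plus strand: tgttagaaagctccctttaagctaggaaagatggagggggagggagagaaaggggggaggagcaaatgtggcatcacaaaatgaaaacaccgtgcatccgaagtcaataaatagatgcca
Vsig4, chrX:96293439-96293558, minus strand: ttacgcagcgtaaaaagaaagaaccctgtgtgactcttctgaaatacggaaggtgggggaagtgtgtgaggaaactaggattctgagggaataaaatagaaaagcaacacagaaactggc
The 250 bases before each start were searched on both strands for GAGGAAG, a sequence bound by the macrophage factor PU.1, for TCACGTG and TCATGTG, bound by MITF and TFE factors, and for TTGCGCA, bound by C/EBP factors. GAGGAAG was found in Trem2, on the opposite strand from 41 bases before the start (the capitals above), and in Marco, 146 bases before the start. The other motifs were found in 0 of the 9 promoters. Among all 32851 promoters of this length, 10.6% hold GAGGAAG, 6.28% TCACGTG or TCATGTG, and 1.69% TTGCGCA. A match of letters does not show that a factor binds there.

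The 10 genes covered a wide range of levels. Per length of the exons, the level of Clec4f in WT livers was 58.1 (35.2 to 83.7) CPM per kb, given as the median with the lowest and highest of 19 libraries. Lyz2 followed with 49.99 (32.6 to 74.95) and Vsig4 with 27.5 (15.5 to 35.7). Adgre1 (11.2), Cd68 (8.85), Cd9 (7.74), Timd4 (5.18), and Marco (2.92) lay lower, and the ranges of neighbors in this order overlapped. Trem2 (0.166 (0.106 to 0.329)) and Gpnmb (0.0441 (0.01205 to 0.0847)) were the lowest, and their ranges overlapped neither each other nor those of the 8 genes above. Pooled over the 4 days, HNKO livers had the highest median for Lyz2 (78.7 (41.4 to 208) CPM per kb, n = 19), followed by Clec4f (63.1), Vsig4 (31.3), Cd68 (14.4), Adgre1 (13), Cd9 (11.8), Marco (7.69), and Timd4 (5.17). Cd68 had a higher mean than Adgre1 at days 3, 6, and 12 with overlapping ranges, but at day 21 it lay below, at 8.35 to 9.65 against 11.8 to 14.4 CPM per kb (n = 3). The order of Gpnmb (0.577 (0.0542 to 3.44)) and Trem2 (0.571 (0.233 to 2.28)) was not resolved in HNKO livers, where their medians were nearly equal. Timd4 had almost the same median in both genotypes.

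Trem2, a receptor for lipids and lipoproteins on macrophages, rose in HNKO livers at each of the 4 days. At day 3 it was at 0.778, 1.23, 0.773, 0.634 and 0.921 CPM in the 5 WT livers and at 4.001, 4.04, 2.05, 1.15 and 6.38 CPM in the 5 HNKO livers. At day 6 the WT livers had 1.04, 0.975, 0.536 and 1.601 CPM and the HNKO livers 2.46, 5.94, 11.3, 5.29 and 2.504 CPM. Of the HNKO livers, 4 of 5 at day 3 and 5 of 5 at day 6 were above every WT liver of the day. At day 12 the values were 0.992, 0.525, 1.63, 0.823 and 0.699 CPM in WT and 1.83, 4.83, 2.83, 1.62, 1.44 and 2.42 CPM in HNKO. At day 21 they were 0.986, 0.7401, 0.532, 1.02 and 0.785 CPM in WT and 5.15, 1.68 and 3.23 CPM in HNKO. At day 12, 4 of 6 HNKO livers lay above every WT liver, and at day 21 3 of 3 did. The log2 fold changes were 2.02 (SE 0.44 and adjusted p = 0.0077, edgeR's quasi-likelihood test), 2.40 (SE 0.47 and adjusted p = 0.000944), 1.42 (SE 0.42 and adjusted p = 0.0321), and 2.08 (SE 0.48 and adjusted p = 0.0143) at days 3, 6, 12, and 21. With 1 library left out in turn, the call was kept in every fit at days 3 and 6 but in 6 of 11 at day 12, where it was lost without WT library 15, 33, or 34 or HNKO library 12 or 13 (highest adjusted p = 0.0905, edgeR). At day 21 it was kept in 7 of 8 fits and lost without HNKO library 37 (adjusted p = 0.323, edgeR). With the 2 failed libraries in the fit, the call of day 12 was lost (adjusted p = 0.117, edgeR), while the log2 fold change stayed at 1.42. In that fit 624 of all genes were called at day 12, against 1588 without the failed libraries.

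Gpnmb encodes a transmembrane glycoprotein of macrophages and other cells with many lysosomes, and it showed the largest genotype difference of the 10 genes. At day 3, WT livers had 0.357, 0.364, 0.119, 0.247 and 0.3604 CPM, from only 2 to 11 counts per library, and HNKO livers 6.62, 4.77, 0.614, 0.82 and 6.99 CPM. At day 6, WT livers had 0.434, 0.462, 0.244 and 0.126 CPM and HNKO livers 1.91, 9.14, 22.4, 6.601 and 2.73 CPM, the last from 42 to 963 counts. Every HNKO liver was above every WT liver at both days, but 2 of the HNKO livers of day 3 lay close to WT. At day 12, the values were 0.368, 0.263, 0.287, 0.274 and 0.122 CPM in WT and 1.31, 5.35, 4.86, 1.87, 1.02 and 1.38 CPM in HNKO, again without overlap. At day 21, WT livers had 0.552, 0.467, 0.198, 0.309 and 0.0785 CPM and HNKO livers 4.63, 0.353 and 3.76 CPM. Of the 3 HNKO livers of day 21, 2 were far above WT, and library 38, with 8 counts, lay within the WT range. The log2 fold changes were 3.71 (SE 0.75 and adjusted p = 0.00454, edgeR), 4.76 (SE 0.83 and adjusted p = 0.000304), 3.30 (SE 0.73 and adjusted p = 0.00696), and 3.24 (SE 0.78 and adjusted p = 0.0187) at the 4 days. The call was kept in every fit with 1 library left out at days 3, 6, and 12, but the value of day 6 was 4.03 without HNKO library 29, the highest liver. At day 21 it was kept in 5 of 8 and lost without WT library 21 or 41 or HNKO library 37 (highest adjusted p = 0.303, edgeR).

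Lyz2, the lysozyme of macrophages and neutrophils, was the most abundant of the recruited genes and rose by less. In log2 CPM (with a prior count of 2), the WT livers of day 3 had 6.34, 6.25, 6.58, 6.61 and 6.63 and the HNKO livers 6.92, 6.93, 6.43, 6.34 and 7.41, with overlap. At day 6 the WT livers had 6.04, 6.07, 6.31 and 6.08 and the HNKO livers 7.19, 7.03, 8.10, 7.19 and 6.69 log2 CPM, without overlap. At day 12 the values were 5.46, 5.97, 5.50, 5.53 and 5.70 in WT and 6.89, 6.36, 6.48, 6.12, 6.28 and 5.77 in HNKO livers, and 5 of 6 HNKO livers were above every WT liver. At day 21 the WT livers had 5.43, 5.92, 6.08, 5.94 and 5.63 and the HNKO livers 7.27, 6.13 and 6.44 log2 CPM, again without overlap. The log2 fold change was 0.37 (SE 0.22 and adjusted p = 0.344, edgeR) at day 3 and passed the threshold at day 6 (1.19, SE 0.24 and adjusted p = 0.00111), day 12 (0.71, SE 0.21 and adjusted p = 0.0344), and day 21 (0.88, SE 0.25 and adjusted p = 0.0434). With 1 library left out, the call was kept in every fit at day 6, in 4 of 11 at day 12, and in 3 of 8 at day 21. At day 12 it was lost without WT library 14, 16, 33, or 34 or HNKO library 11, 12, or 13 (highest adjusted p = 0.0994, edgeR), and at day 21 without WT library 19, 20, 39, or 41 or HNKO library 37 (highest adjusted p = 0.661, edgeR), when the log2 fold change of that day was 0.49. The call of day 21 was also lost in a fit of the groups of that day alone (adjusted p = 0.0626, edgeR) or when the label series entered as a covariate (adjusted p = 0.0553).

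Cd68, a lysosomal membrane glycoprotein of macrophages, passed the threshold at day 6, with a log2 fold change of 0.88 (SE 0.26 and adjusted p = 0.024, edgeR). At that day the WT livers had 4.01, 3.93, 3.83 and 3.48 and the HNKO livers 4.83, 4.90, 5.06, 4.42 and 4.05 log2 CPM, without overlap. The call was lost in 3 of 9 fits with 1 library left out, namely without HNKO library 7 (adjusted p = 0.0533), HNKO library 29 (0.0868), or WT library 28 (0.0787, all edgeR). The log2 fold changes at days 3, 12, and 21 were 0.49 (95% interval -0.011 to 0.98), 0.66 (0.17 to 1.14), and 0.37 (-0.20 to 0.95). The value of day 12 was not called, but passed with the label series as a covariate (0.67, adjusted p = 0.0256, edgeR) and without HNKO library 32, 35, or 36 (lowest adjusted p = 0.0328). At that day the HNKO livers had 4.43, 4.18 and 4.40 log2 CPM in the first series and 3.01, 3.27 and 3.265 in the second. The WT livers had 3.28, 3.59 and 3.63 in the first and 2.29 and 2.98 in the second. Over both series the genotypes overlapped, with 3 of 6 HNKO livers above every WT liver (exact permutation p = 0.126). Within the second series the lowest HNKO liver and the highest WT liver were nearly equal. The HNKO livers of day 21 had 3.57, 3.61 and 3.40 log2 CPM and lay just above the highest WT liver, at 3.33. Cd9, a tetraspanin of the cell surface, was called at no day. Its log2 fold changes were 0.60 (-0.091 to 1.30), 0.83 (0.085 to 1.58), -0.077 (-0.74 to 0.58), and 0.26 (-0.54 to 1.05) at days 3, 6, 12, and 21, and its WT livers spread widely, from 2.99 to 5.31 log2 CPM over all days.

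**Figure D1:**
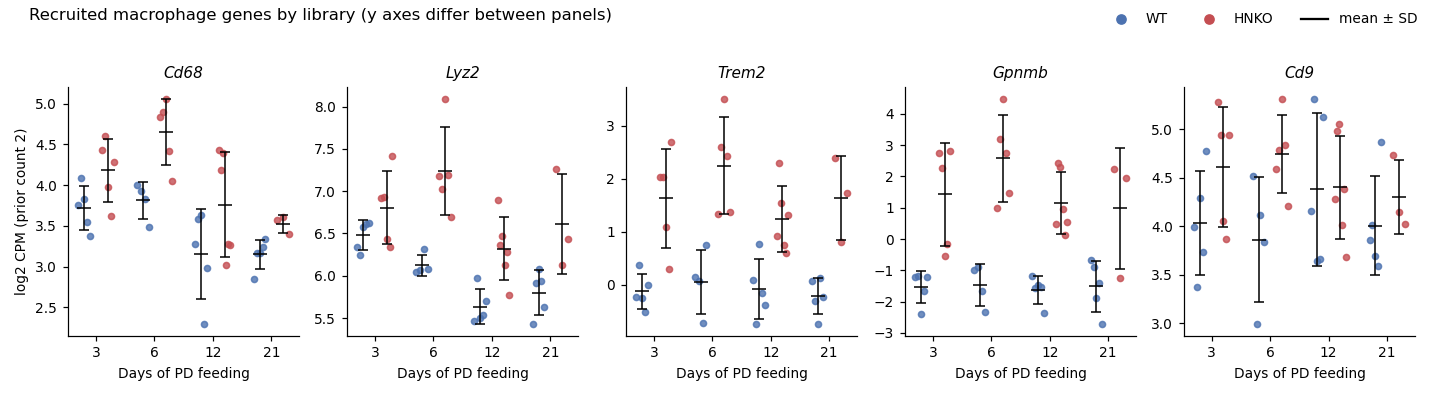
Expression of the 5 recruited macrophage genes in log2 CPM (prior count 2) against days of PD feeding, with 1 point per library in WT (blue) and HNKO (red) livers and the mean ± SD of each group in black. The HNKO points of Trem2 and Gpnmb sit above most or all WT points at each day and spread more widely, with 1 HNKO liver of day 21 among the WT points of Gpnmb, whereas the Cd9 points of the genotypes overlap at every day.

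Of the 5 genes of resident Kupffer cells, 0 were called at any of the 4 days in edgeR's quasi-likelihood test. At an unadjusted p under 0.05, 7 of these 20 comparisons would pass (Vsig4 and Adgre1 at days 6 and 12, Marco at days 6, 12, and 21), all with the higher value in HNKO livers. Over all tested genes and the 4 days together, 12.5% of comparisons passed so with the higher value in HNKO livers. Clec4f, a lectin that is restricted to Kupffer cells in mice, was 7.45 ± 0.18 (SD, n = 5) log2 CPM in WT and 7.26 ± 0.17 (SD, n = 5) in the HNKO livers at day 3, and 7.45 ± 0.22 (SD, n = 4) and 7.66 ± 0.19 (SD, n = 5) at day 6. It was 6.81 ± 0.29 (SD, n = 5) and 7.01 ± 0.27 (SD, n = 6) at day 12, and 7.03 ± 0.26 (SD, n = 5) and 7.10 ± 0.44 (SD, n = 3) at day 21. Its log2 fold changes were -0.19, 0.21, 0.20, and 0.10, and the genotypes overlapped at every day. The 95% intervals of these values together reached from -0.50 to 0.53, which leaves out a change of 1 log2 unit in either direction. Timd4, by which Kupffer cells bind apoptotic cells, had log2 fold changes of -0.19 (-0.64 to 0.26), 0.14 (-0.34 to 0.62), 0.19 (-0.24 to 0.62), and 0.23 (-0.29 to 0.75). A loss of Timd4 by 1 log2 unit lay outside the interval at each day.

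Vsig4, a complement receptor of Kupffer cells, was at 5.49, 5.51, 5.73 and 5.57 log2 CPM in WT and 6.25, 5.96, 5.90, 5.89 and 5.74 in HNKO livers at day 6, where the genotypes did not overlap. Its log2 fold change of 0.38 at that day missed the threshold (adjusted p = 0.104, edgeR), as did those of 0.023, 0.42, and 0.32 at days 3, 12, and 21. The value of day 12 passed without WT library 15 (adjusted p = 0.0314, edgeR), without HNKO library 32 (0.0370), and with DESeq2 (0.0483), and that of day 21 with all 40 libraries (0.0469, edgeR), whereas without HNKO library 38 the latter fell to 0.097 (adjusted p = 0.844). Adgre1, which encodes the macrophage antigen F4/80, had log2 fold changes of -0.15, 0.47, 0.46, and 0.23, with SEs of 0.19 to 0.23. Marco, a scavenger receptor for bacteria and particles, differed more between mice of 1 group than any other resident gene. At day 6 the WT livers had 12.5, 12.2, 11.3 and 4.802 CPM and the HNKO livers 19.1, 56.4, 36.05, 19.9 and 14.8 CPM, without overlap. At day 12 the WT livers had 5.11, 25.4, 6.46, 2.44 and 5.504 CPM and the HNKO livers 111, 16.99, 14.3, 4.63, 22 and 12.04 CPM. At day 21 the values were 2.37, 5.02, 9.597, 3.58 and 5.61 CPM in WT and 47.5, 6.71 and 4.09 CPM in HNKO. In each of the later groups of HNKO livers 1 liver was far above the rest, library 11 at day 12 and library 37 at day 21, while the others overlapped WT. The log2 fold changes of Marco were 0.35, 1.53, 1.75, and 1.87, with SEs of 0.65 to 0.75. Without library 11 the value of day 12 was 0.64 and without library 37 that of day 21 was 0.0204, whereas with the label series as a covariate the latter was 2.44 and passed the threshold (adjusted p = 0.0474, edgeR). Without WT library 15, the highest WT liver of day 12, the value of that day was 2.64 and passed the threshold (adjusted p = 0.0302, edgeR), and without HNKO library 32 it was 1.98 and also passed (adjusted p = 0.0487). At day 3, where Marco was not called, the value lay between 0.11 (without HNKO library 3) and 0.75 (without WT library 1).

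**Figure D2:**
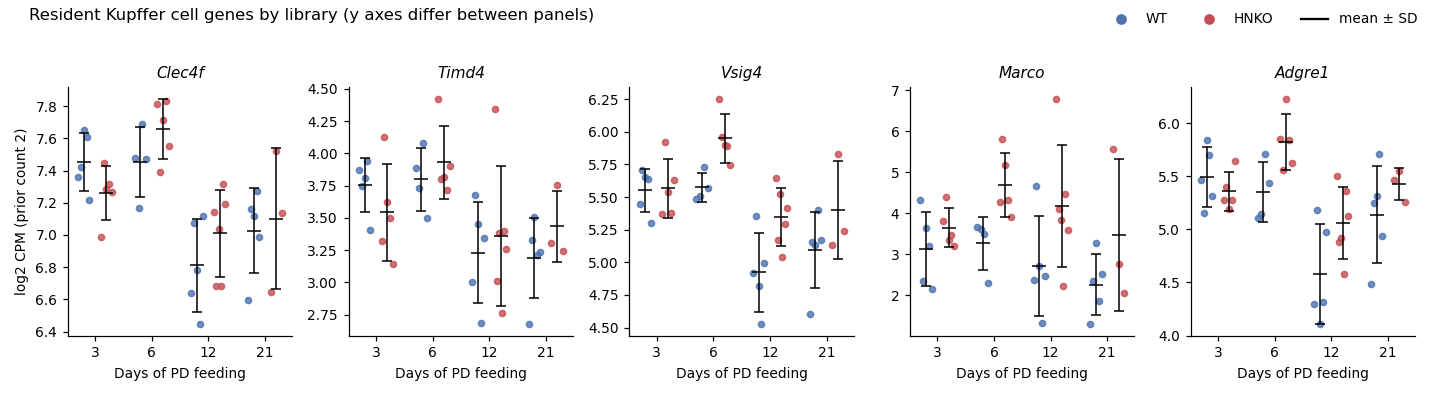
Expression of the 5 resident Kupffer cell genes in log2 CPM (prior count 2) against days of PD feeding, with 1 point per library in WT (blue) and HNKO (red) livers and the mean ± SD of each group in black. The genotypes overlap for Clec4f, Timd4, and Adgre1 at every day, and for Marco single HNKO libraries at days 12 and 21 stand far above their groups.

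Of the 10 genes, 2, 4, 3, and 3 were called higher in HNKO livers at days 3, 6, 12, and 21, and 0 were called lower. All were recruited genes. The count of day 12 was 1 without HNKO library 12 or 13 or WT library 33 or 34 and 6 without HNKO library 32, and that of day 21 was 0 without HNKO library 37 and 1 without WT library 41. Of all 20297 genes tested, 2.95%, 8.42%, 4.56%, and 2.21% were called higher at these days. The median log2 fold change over the 5 recruited genes was 0.60, 1.19, 0.71, and 0.88 at the 4 days, over the 5 resident genes it was -0.15, 0.38, 0.42, and 0.23, and over all tested genes it was between -0.014 and 0.013. Every HNKO liver was above every WT liver for 1 gene at day 3 (Gpnmb), 6 at day 6 (Vsig4, Marco, Cd68, Lyz2, Trem2, and Gpnmb), 1 at day 12 (Gpnmb), and 3 at day 21 (Cd68, Lyz2, and Trem2). Over all tested genes this held for 2.31%, 8.08%, 2.65%, and 7.25%. In two-sided exact permutation tests of log2 CPM, of which 40 were made, Gpnmb reached p = 0.00794 (n = 5 and 5), 0.00794 (n = 4 and 5), and 0.00216 (n = 5 and 6) at days 3, 6, and 12, each the smallest p the group sizes allow. At day 21 it had an exact p of 0.0536, and Trem2, Lyz2, and Cd68 had the smallest possible, 0.0179 (n = 5 and 3).

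**Figure D3:**
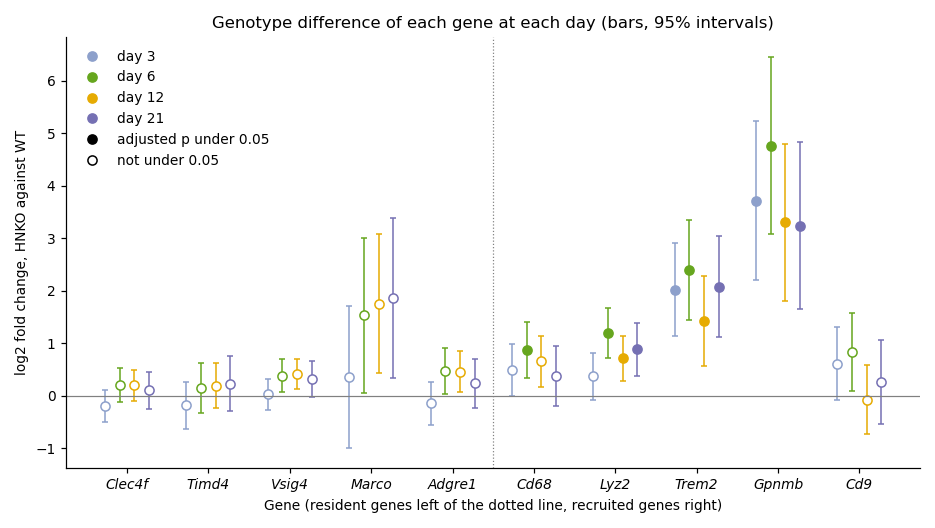
The log2 fold change of HNKO against WT livers (y axis) for each of the 10 genes (x axis) at days 3, 6, 12, and 21, with 95% intervals as bars and filled points for adjusted p-values under 0.05 (edgeR). Filled points are found for Trem2 and Gpnmb at 4 days, for Lyz2 at 3, and for Cd68 at 1, and all resident genes have open points, with the widest intervals for Marco.

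Taking the mean of the genotype difference over the 4 days, 6 of 10 genes were called, all higher in HNKO livers, against 19.2% of all tested genes called higher. Gpnmb had a mean log2 fold change of 3.75 (SE 0.39 and adjusted p = 6.82e-09, edgeR) and Trem2 of 1.98 (SE 0.23 and adjusted p = 4.31e-08). Lyz2 (0.79, SE 0.11 and adjusted p = 2.31e-06) and Cd68 (0.60, SE 0.13 and adjusted p = 0.000385) rose less. Of the resident genes, Vsig4 (0.28, SE 0.077 and adjusted p = 0.00355) and Marco (1.37, SE 0.35 and adjusted p = 0.00217) were called. Clec4f (0.078, 95% interval -0.083 to 0.24), Timd4 (0.094, -0.14 to 0.33), Adgre1 (0.25, 0.041 to 0.46), and Cd9 (0.40, 0.042 to 0.77) were not. With 1 library left out, Adgre1 was called in 10 of 38 fits (lowest adjusted p = 0.0203, edgeR) and Cd9 in 6 of 38 (lowest adjusted p = 0.0312). A test of whether the genotype difference varied between days called 0 of the 10 genes and 0% of all tested genes (edgeR), with 966 of all tested genes and 0 of the 10 at an unadjusted p under 0.05. Within the label series, where 7 comparisons of genotypes at 1 day could be made, Trem2, Gpnmb, Lyz2, Cd68, and Marco were higher in HNKO livers in 7 of 7, Vsig4 and Cd9 in 6, Timd4 and Adgre1 in 5, and Clec4f in 4. The within-series differences in log2 CPM were 1.16 to 2.42 for Trem2 and 2.49 to 4.90 for Gpnmb.

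Between day 3 and day 21, 0 of the 10 genes were called in WT or in HNKO livers (edgeR), where 4.95% and 2.43% of all tested genes were. In WT livers, log2 fold changes of day 21 against day 3 were -0.42 (SE 0.15 and adjusted p = 0.105) for Clec4f, -0.55 (SE 0.22 and adjusted p = 0.147) for Timd4, -0.44 (SE 0.15 and adjusted p = 0.072) for Vsig4, and -0.67 (SE 0.22 and adjusted p = 0.0685) for Lyz2. At an unadjusted p under 0.05, 5 of the 10 genes would pass in WT livers, these 4 and Cd68, all with the lower value at day 21, against 9.64% of all tested genes. Lists of other cells, described below, had medians of -1.33 (red blood cells), -0.87 (B cells), -0.67 (monocytes), -0.59 (bile duct), -0.50 (T and NK cells), and -0.36 (neutrophils) in WT livers. Medians were -0.16 for hepatocyte, -0.024 for sinusoidal endothelial, 0.076 for stellate cell and myofibroblast, and 0.091 for dendritic cell genes. In HNKO livers, where 9.32% of all tested genes would pass with the lower value, Cd68 alone of the 10 would (-0.70, SE 0.29 and adjusted p = 0.186), and the values for Trem2 and Gpnmb were -0.057 (SE 0.46) and -0.42 (SE 0.70).

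Livers of 1 group differed in these genes, and the differences were shared between genes. For each of the 45 pairs of genes, deviations from the group mean of log2 CPM were correlated over the 38 libraries, with 100000 permutations of the libraries within their groups. Adjusted over the pairs, 18 had p under 0.05, 17 of them with r above 0. Trem2 and Gpnmb varied together (Pearson's r = 0.76, permutation p = 4.00e-05, adjusted p = 0.00045, and Spearman's rho = 0.77, permutation p = 2.00e-05), and r was 0.70 without the 2 livers of most extreme Trem2. Among the 19 HNKO livers r was 0.91 and among the 19 WT livers, where both genes had few counts, it was 0.17. This difference was not tested. Of the resident genes, all but Marco varied together, with Clec4f and Vsig4 (Pearson's r = 0.77, permutation p = 1.00e-05, adjusted p = 0.000225, and Spearman's rho = 0.73, permutation p = 1.00e-05), Timd4 and Vsig4 (r = 0.76), and Clec4f and Adgre1 (r = 0.70) closest to each other. The smallest p that the permutations can give is 1e-05. Without the 2 most extreme livers these r were 0.72, 0.75, and 0.72, and within the 2 label series they were 0.68 to 0.84. Marco had r of 0.64 with Timd4 (adjusted permutation p = 0.00215) and 0.47 with Adgre1 (0.0174), but 0.14 with Clec4f (0.624) and 0.36 with Vsig4 (0.130). With the recruited genes Cd68 and Lyz2 it had r of 0.58 and 0.54 (adjusted permutation p = 0.00208 and 0.0123).

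Between the sets, livers with more Gpnmb than their group had less Clec4f (Pearson's r = -0.47, permutation p = 0.0102, adjusted p = 0.0269, and Spearman's rho = -0.43, permutation p = 0.0133), with r of -0.50 in HNKO and -0.48 in WT livers, -0.41 without the 2 most extreme livers, and -0.48 and -0.41 within the series. Cd68 went with Vsig4 (r = 0.56, adjusted permutation p = 0.00307) and Lyz2 with Adgre1 (r = 0.58, adjusted permutation p = 0.000525), so that these genes of the recruited list varied with resident genes as well. Lyz2 and Trem2 had r of 0.69 among HNKO and -0.65 among WT livers, and over all livers their relation did not pass after adjustment (r = 0.42, adjusted permutation p = 0.0827). Correlations of log2 CPM within a library also share its depth and scaling.

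**Figure D4:**
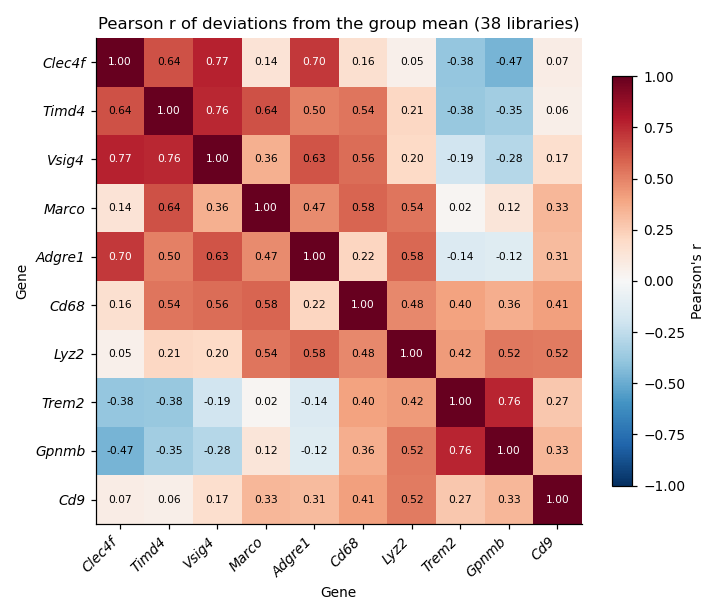
Pearson's r (color, from -1 in blue to 1 in red) between each pair of the 10 genes, over deviations of log2 CPM from the group mean in 38 libraries. Clec4f, Timd4, Vsig4, and Adgre1 form a block of positive r, Trem2 and Gpnmb stand at 0.76 with each other and at -0.47 for Gpnmb with Clec4f.

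Over all tested genes, the 3 whose deviations were most like those of each gene (2 for Marco) are given with Pearson's r over the 38 libraries, as a description without a test. They were Ptgs1 (0.84), Fcna (0.82), Vsig4 (0.77) for Clec4f, Cd5l (0.86), Cfp (0.83), Folr2 (0.79) for Timd4, Cd5l (0.86), Folr2 (0.83), Cfp (0.79) for Vsig4, Aoah (0.85), Siglece (0.79) for Marco, and Adgre4 (0.90), Cd86 (0.84), Myo9a (0.84) for Adgre1. Among them are Fcna, Folr2, and Cd5l, which are also genes of Kupffer cells, and Cfp, the complement factor properdin. For the recruited genes they were Lgmn (0.93), Arrb2 (0.92), Dmpk (0.91) for Cd68, Cybb (0.90), Myo1f (0.87), Tbc1d9 (0.87) for Lyz2, Itga2 (0.82), Itgax (0.81), Osbpl3 (0.79) for Trem2, Haus8 (0.89), Itgax (0.86), Ubd (0.84) for Gpnmb, and Tmod3 (0.81), Usp12 (0.81), Col4a2 (0.78) for Cd9. Itgax, the integrin subunit CD11c of dendritic cells and activated macrophages, was among the 3 nearest genes of both Trem2 and Gpnmb.

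Other genes of the same cells were examined as lists, with genes named by the smallest p over the mean of the 4 days. Of 12 other genes of Kupffer cells, 1 was called higher at each day and 1 lower at days 3 and 12, and their median log2 fold changes were -0.15, 0.17, 0.17, and 0.047. Of all tested genes, 1.71%, 4.37%, 3.27%, and 0.916% were called lower at days 3, 6, 12, and 21, beside the shares called higher given above. The higher one was C6, a complement component, at 1.25 (SE 0.24 and adjusted p = 0.00374), 1.14 (SE 0.26 and adjusted p = 0.0038), 1.6 (SE 0.24 and adjusted p = 0.000206), and 1.75 (SE 0.27 and adjusted p = 0.000598), all by edgeR. The lower one was Cd163, the hemoglobin scavenger receptor, at -0.85 (SE 0.21 and adjusted p = 0.0194) at day 3 and -0.80 (SE 0.20 and adjusted p = 0.0151) at day 12 (edgeR). Over the mean of the 4 days, 4 of the 12 were called higher (C6, Cd5l, Id3, and Il18bp) and 4 lower (Cd163, Fcna, Nr1h3, and Mrc1), with a median of 0.064, where 19.2% of all tested genes were called higher and 17.3% lower. Of 16 genes shared by macrophages in general, the number called higher was 1, 12, 7, and 3 (days 3, 6, 12, and 21), with 0 lower and medians of 0.33, 0.72, 0.53, and 0.42. Cd14, the coreceptor for bacterial lipopolysaccharide, had 3.69 (SE 0.57 and adjusted p = 9.09e-05) at day 6, and Tyrobp, the adaptor through which TREM2 signals, had 0.95 (SE 0.19 and adjusted p = 0.00141) (edgeR). Over the mean of the days 14 of the 16 were called higher. Of 9 tested monocyte genes, those called higher numbered 3, 9, 5, and 4 (days 3, 6, 12, and 21), with 0 lower and medians of 1.24, 3.04, 1.67, and 1.90. Ccr2, the receptor for CCL2, had 1.77 (SE 0.45 and adjusted p = 0.0204) at day 3 and 3.18 (SE 0.52 and adjusted p = 0.000156) at day 6 (edgeR), and Cx3cr1 had 2.54 (SE 0.48 and adjusted p = 0.00318) and 2.86 (SE 0.54 and adjusted p = 0.000641).

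Of 12 genes of lipid-associated macrophages, 4, 6, 6, and 4 (days 3, 6, 12, and 21) were called higher and 0 lower, with medians of 0.49, 0.80, 0.69, and 0.72. Spp1 (osteopontin), which bile duct cells also express, rose by a mean of 2.71 (SE 0.19 and adjusted p = 2.78e-12) over the 4 days, the elastase Mmp12 by 3.44 (SE 0.36 and adjusted p = 9.06e-09), the tetraspanin Cd63 by 1.93 (SE 0.22 and adjusted p = 2.99e-08), and the lectin Lgals3 by 1.13 (SE 0.13 and adjusted p = 7.41e-08), all by edgeR. Of 7 tested growth factors and chemokines that act on macrophages, 3, 5, 1, and 2 (days 3, 6, 12, and 21) were called higher and 0 lower. Ccl2, which draws monocytes, had 2.62 (SE 0.63 and adjusted p = 0.0149) at day 3 and 3.257 (SE 0.71 and adjusted p = 0.0025) at day 6 (edgeR), and Csf1, the growth factor of macrophages, 0.51 (SE 0.16 and adjusted p = 0.0481) and 0.87 (SE 0.17 and adjusted p = 0.000745). Over the mean of the days, 9 of 9 monocyte genes, 7 of 12 genes of lipid-associated macrophages, and 5 of 7 growth factors and chemokines were called higher, and 0 lower. Of all tested genes, 19.2% were called higher and 17.3% lower in that comparison.

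Markers of other cells moved in the same livers. Unless another day is named, sums are given for day 6, the day with the most genes called of all tested. Of 7 tested neutrophil genes, all 7 were called higher at day 6 and 0, 3, and 1 at days 3, 12, and 21, and the sum of the 10 listed genes, tested or not, at day 6 was 4.89 to 7.36 CPM (median 6.71) in WT and 20.5 to 65.8 CPM (median 31.4) in HNKO livers. The 10 listed monocyte genes summed to 15.8 to 22.3 CPM (median 17.7) in WT and 44.1 to 153 CPM (median 73.5) in HNKO livers at that day. Of 6 bile duct (cholangiocyte) genes, those called higher were 5, 5, 4, and 3 (days 3, 6, 12, and 21), and their sum at day 6 was 5.897 to 6.77 CPM (median 6.08) in WT and 13.8 to 29.4 CPM (median 19.6) in HNKO livers. Of 9 genes of stellate cells and myofibroblasts, 4, 4, 3, and 3 (days 3, 6, 12, and 21) were called higher, and 1, Reln, was called lower at day 12. Their sum at day 6 was 505 to 556 CPM (median 529.5) in WT and 666 to 1294 CPM (median 863) in HNKO livers. At day 3 the sum was 573 to 623 CPM in WT and 438 to 1296 CPM in HNKO livers. At days 3, 12, and 21 the sums of these genes and of the neutrophil genes overlapped between genotypes, and those of the monocyte genes did at day 3. Of 5 tested hepatocyte genes, Ttr and Alb were called lower at day 6 and 0 at the other days (Alb at -0.67 (SE 0.18 and adjusted p = 0.0138), edgeR), and the sum at day 6 was 111487 to 122220.0 CPM (median 119056) in WT and 53739 to 96007 CPM (median 78993) in HNKO livers. Of 7 sinusoidal endothelial genes, 0 were called higher and 1, Kdr, was called lower at days 6 and 12, with a sum at day 6 of 673 to 711 CPM (median 688) in WT and 599 to 709 CPM (median 636) in HNKO livers. Among genes of T and NK cells, 0 of 9 were called at any of the 4 days, with a sum at day 6 of 5.01 to 8.01 CPM (median 5.66) in WT and 6.32 to 9.73 CPM (median 8.63) in HNKO livers. Among B cell genes 1 of 6, Ms4a1, was called lower, at day 3. Their sum at day 3 was 9.10 to 45.8 CPM (median 10.9) in WT and 8.48 to 11.03 CPM (median 10.2) in HNKO livers. The medians were thus close, and the highest WT liver stood far above the WT median. At day 6 the sum was 8.51 to 15.2 CPM (median 11.5) in WT and 10.97 to 15.05 CPM (median 12.96) in HNKO livers. Of 6 dendritic cell genes, 1, 2, 0, and 1 (days 3, 6, 12, and 21) were called higher, and the sum at day 6 was 23.2 to 30.5 CPM (median 24.9) in WT and 24.1 to 33.7 CPM (median 27.03) in HNKO livers. Among 5 genes of red blood cells 0 were called at any of the 4 days, with a sum at day 6 of 97.5 to 311 CPM (median 163) in WT and 123 to 270.0 CPM (median 152) in HNKO livers. Over the mean of the days, 7 of 7 neutrophil, 6 of 6 bile duct, and 7 of 9 stellate cell and myofibroblast genes were called higher. So were 2 of 6 dendritic cell and 1 of 9 T and NK cell genes, and 0 genes of the other 4 lists. Called lower were 2 of 5 hepatocyte genes and 1 gene each of the stellate, dendritic, and endothelial cell lists. Of the markers listed for these cells, the neutrophil gene Ly6g and the monocyte gene Fcnb were at 0 counts in all WT livers of at least 1 day. The part of these cells in the values of Lyz2, Cd68, and Cd9, which neutrophils or bile duct cells can also express, was not tested.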

How the data were processed

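RNA of whole liver was depleted of ribosomal RNA, sequenced as 51-bp paired ends, aligned to GRCm38 by STAR (2.7.2b), and assigned to GENCODE M22 genes by featureCounts (1.6.4), as the authors state, and the authors deposited the raw counts per gene that were used here. Whether counting used the strand is not stated. Genes were named through a table of Ensembl identifiers, which matched 55094 of 55487. Of the listed genes, 16022 had 0 counts in all libraries.

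Libraries were grouped by the genotype and day of their labels, and 2 libraries described as failed in quality control were left out. Genes were kept by filterByExpr (minimum count 10, minimum total 15, proportion 0.7). Counts were scaled by TMM and tested with the quasi-likelihood method of edgeR (4.0.16, legacy computation, R 4.3.3, limma 3.58.1), with 1 mean per genotype and day, over 38 libraries in 1 fit. Adjusted p-values are Benjamini-Hochberg values over 20297 genes, called under 0.05. Each library is of 1 mouse, so that p-values measure the spread between mice. Log2 CPM were computed with a prior count of 2. Single genes were also compared by two-sided exact permutation tests, and correlations by permutation within groups. The analysis was tested on simulated data.

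The 10 genes, the other lists, and the tests were chosen with earlier results of these data known. Named genes were the 10, Nampt, at most 4 genes of each other list by the smallest p over the mean of the days, and the 3 genes nearest to each, of which 1 is not reported here. Cd5l, Id3, Nr1h3, Mrc1, Reln, Ly6g, and Fcnb were named after their values were seen. Alternatives were RLE size factors in edgeR, no filter on low counts (at least 1 count in all), the edgeR 4 computation, DESeq2 (1.42.0), all 40 libraries, the label series as a covariate, a fit of only 1 day, a prior count of 0.5, and leaving out each library in turn. Promoters are of RefSeq, and positions of GENCODE M21.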

Additional observations from a re-analysis of the deposited data

Results flagged for a closer look

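In log2 CPM, 3 of 70 groups of 4 to 6 livers held a liver farther from the others than Dixon's 95% critical value, where chance alone does so in about 1 in 20 groups. Timd4 was at 4.426 in HNKO library 6 of day 6, the highest of its 5 livers. Marco was at 2.285 in WT library 28 of day 6, the lowest of its 4 livers, and Lyz2 at 6.311 in WT library 27 of day 6, the highest of its 4.

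The 2 HNKO libraries of day 21 described as failed in quality control were left out of the comparisons above, except where all 40 libraries are named. With the 40 libraries scaled together, 12 of their 20 values lay above every WT liver of that day and 6, all of library 17, below every WT liver. Of all 19981 genes kept in that scaling, 25.6% lay above and 58.6% below every WT liver in library 17, and 28.7% above and 36.8% below in library 18. In library 18 these were Clec4f at 7.641, Timd4 at 3.803, Vsig4 at 5.761, Marco at 4.339, Adgre1 at 6.125, Cd68 at 4.225, Lyz2 at 7.111, Trem2 at 1.608, and Gpnmb at 1.634 log2 CPM, and in library 17 Vsig4 at 5.852, Cd68 at 3.509, and Lyz2 at 6.439. The highest WT livers had 7.29, 3.51, 5.42, 3.28, 5.74, 3.34, 6.08, 0.14, and -0.68 log2 CPM for Clec4f, Timd4, Vsig4, Marco, Adgre1, Cd68, Lyz2, Trem2, and Gpnmb. The values of library 17 below WT were Timd4 at 1.97, Marco at 0.20, Adgre1 at 3.88, Trem2 at -3.76, Gpnmb at -2.73, and Cd9 at 2.67 log2 CPM, where the lowest WT livers had 2.67, 1.28, 4.48, -0.72, -2.71, and 3.61. Library 17 had 0 counts of Trem2, 1 of Gpnmb, and 14 of Marco, so that the 2 failed libraries differed from each other in these genes.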

How the results depend on the processing

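Over 520 values of the 10 genes under alternatives that kept each compared library, 505 kept their direction and their side of the threshold, 8 newly passed it, 3 no longer did, and 4 changed direction. Of the 505, 60 are of the test of whether the genotype difference varied between days. They have no direction and were compared by the threshold alone. Those lost were Trem2 at day 12 with all 40 libraries (adjusted p = 0.117, edgeR) and Lyz2 at day 21 with the label series as a covariate (0.0553) or in a fit of that day alone (0.0626). Those gained were Vsig4 at day 21 with all 40 libraries (adjusted p = 0.0469), Cd68 at day 12 (0.0256) and Marco at day 21 (0.0474) with the series covariate, and Vsig4 at day 12 with DESeq2 (0.0483). From day 3 to day 21 in WT livers, 0 genes were called, against 2 with the series covariate (Vsig4, adjusted p = 0.0437, and Cd68, 0.0403, edgeR) and 2 with DESeq2 (Vsig4, 0.0412, and Lyz2, 0.0320). The log2 fold changes that changed sign were all of day 21 against day 3, namely Vsig4 in HNKO livers with all 40 libraries (0.020), and with the series covariate Gpnmb in WT (-0.061) and Timd4 (0.030) and Adgre1 (-0.051) in HNKO livers. The cause was not tested.

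With 1 library left out in turn, the number of the 10 genes called ranged from 1 to 6 at day 12, from 0 to 3 at day 21, from 3 to 4 at day 6, and from 6 to 8 over the mean of the days, and stayed at 2 at day 3. Log2 fold changes that crossed 0 ranged from -0.24 to 0.20 for Cd9 and -0.084 to 0.32 for Timd4 at day 12, from -0.11 to 0.31 for Clec4f at day 21, from -0.075 to 0.072 for Vsig4 at day 3, and from -0.0032 to 0.24 for Timd4 at day 6. For day 21 against day 3 they ranged in HNKO livers from -0.33 to 0.085 for Clec4f, -0.89 to 0.10 for Gpnmb, -0.55 to 0.072 for Lyz2, -1.27 to 1.08 for Marco, -0.29 to 0.041 for Timd4, and -0.49 to 0.28 for Trem2, and in WT livers from -0.32 to 0.20 for Cd9, -0.23 to 0.28 for Gpnmb, and -0.22 to 0.036 for Trem2.

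Over all genes, 945, 2596, 1588, and 634 were called at days 3, 6, 12, and 21, against 331, 1321, 624, and 1350 with all 40 libraries. No paired analysis was possible because library numbers are unique to 1 mouse. Gpnmb in WT livers rested on few counts, and day 21 had 3 HNKO livers of 1 label series, so that series and genotype are partly mixed there.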

Other observations

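The mean log2 CPM of the 5 recruited genes minus that of the 5 resident genes was taken per liver as a description, without a test. In WT livers it was -2.56 ± 0.41 (SD, n = 5) at day 3, -2.61 ± 0.26 (SD, n = 4) at day 6, -2.16 ± 0.35 (SD, n = 5) at day 12, and -2.30 ± 0.43 (SD, n = 5) at day 21. In HNKO livers it was -1.34 ± 0.75 (SD, n = 5), -1.32 ± 0.58 (SD, n = 5), -1.62 ± 0.72 (SD, n = 6), and -1.55 ± 0.73 (SD, n = 3) at these days. The HNKO livers spread more widely than the WT livers at every day, and the mean of the resident genes alone was 5.08, 5.09, 4.45, and 4.54 log2 CPM in WT and 5.07, 5.61, 4.99, and 4.96 in HNKO livers at days 3, 6, 12, and 21. The mean of the recruited genes alone was 2.52, 2.48, 2.29, and 2.24 in WT and 3.73, 4.29, 3.37, and 3.41 in HNKO livers. Each gene had the same weight. Gpnmb and Trem2, the genes of lowest level in WT livers, differed most, by 4.05 and 2.18 log2 CPM between the group means of day 6.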
